A study of Mus musculus with 13 samples.

Results

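The interferon-inducible p200 family genes Ifi203, Ifi204, Ifi207, Ifi209 and Mndal were followed in 4T1 mammary tumours. The members were taken by gene symbol, and 4 of the 5 had an array feature with that symbol, among 19505 genes measured. Ifi203 had no feature under its name and is not analysed here. No member had more than 1 feature, so each gene stood for itself. Another 8 genes of the same family were listed for comparison, of which 5 were measured (Aim2, Ifi208, Ifi211, Ifi213 and Ifi214).

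RNA was measured on Clariom S mouse arrays, each hybridised with RNA pooled from tumours. The tumours had grown in 1 mammary fat pad of Nlrx1-/- or WT BALB/c mice, and the arrays fell into 6 groups of 2. In both hosts the injected cells were 4T1OE cells, which overexpress NLRX1, 4T1OE-CTL cells, which are the transduced overexpression controls, or parental untransduced 4T1 cells, a mouse mammary carcinoma line of BALB/c origin. The knockout was in the host, and each transduced line was 1 line, so the line and its transduction cannot be told apart. The sources used here give neither the number of tumours per pool nor the mice's age, the construct or its promoter. With pools as samples, the p-values below measure the spread between pools. NLRX1 is an NLR protein found at mitochondria and known for restraining antiviral and interferon-inducing signals.

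Proteins of the p200 family, also called HIN-200 or PYHIN proteins, carry a HIN domain that binds DNA, and many also carry a pyrin domain through which they assemble with other proteins. Their genes lie in a cluster on mouse chromosome 1 and are known for induction by type I and type II interferons. Myeloid cells are a well-known site of their expression. Aim2 builds an inflammasome on cytosolic DNA, the p204 protein of Ifi204 has been linked in mouse to DNA sensing through STING, and Mndal encodes a nuclear protein related to the myeloid nuclear differentiation antigen. Because the genes arose by duplication and resemble each other closely, an array feature may also bind transcripts of a close relative, and whether the features separate them was not tested.

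Promoter sequence was read for 12 of the 13 family genes from RefSeq's mouse table (build GRCm38.p6), with no window for Ifi204. Each window ran from 250 bases before to 50 bases after a gene start. The motif searched was the core of an interferon-stimulated response element. Its shorter form was AAANNGAAA, and its full form the same letters with 1 more G in front, so the shorter form lies inside every full match. Both strands were searched, as for the STAT-type motif TTCNNNGAA. The full motif stood in a window of 9 of the 12 genes, against 3.44% of all 32851 promoter windows, and the shorter form in 10 genes, against 10.6%. The family was counted by gene over 14 windows and the background by window, so the units differ. Ifi203 matched in window 2 and not in window 1. TTCNNNGAA matched Ifi202b alone in the family, against 8.3% of all windows. These matches describe letters in the reference sequence, and the mice here were BALB/c. The 250 bases before the start are printed for the measured members with a window, 5′ to 3′ along the gene, to show where the motif stands. Capitals mark the motif, full in Ifi207 and Mndal and in the shorter form in Ifi209:
Mndal, chr1:173880188-173880437, strand minus: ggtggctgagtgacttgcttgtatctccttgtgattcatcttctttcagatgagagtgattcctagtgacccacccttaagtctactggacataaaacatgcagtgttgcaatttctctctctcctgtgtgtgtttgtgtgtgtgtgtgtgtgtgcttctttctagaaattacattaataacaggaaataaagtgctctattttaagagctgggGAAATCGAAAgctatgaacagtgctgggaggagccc
Ifi207, chr1:173741810-173742059, strand minus: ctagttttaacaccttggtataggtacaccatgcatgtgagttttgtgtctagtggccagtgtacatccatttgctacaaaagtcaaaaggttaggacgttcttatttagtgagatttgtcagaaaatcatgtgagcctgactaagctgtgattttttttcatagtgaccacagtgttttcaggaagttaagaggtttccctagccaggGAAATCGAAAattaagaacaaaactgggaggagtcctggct
Ifi209, chr1:173630609-173630858, strand plus: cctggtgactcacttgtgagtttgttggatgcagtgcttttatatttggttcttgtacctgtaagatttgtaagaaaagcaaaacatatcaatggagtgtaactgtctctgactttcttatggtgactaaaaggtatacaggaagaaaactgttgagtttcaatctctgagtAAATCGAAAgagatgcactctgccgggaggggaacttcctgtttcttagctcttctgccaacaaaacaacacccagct

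The 30 bases around the motif show how closely the family resembles itself there. Capitals again mark the match. Ifi203 is shown because it has no array feature of its own, and Ifi211 and Ifi214 because they were measured beside the members:
Mndal: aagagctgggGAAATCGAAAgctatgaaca
Ifi203: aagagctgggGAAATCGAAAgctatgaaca
Ifi207: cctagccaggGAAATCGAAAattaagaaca
Ifi211: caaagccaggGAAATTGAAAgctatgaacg
Ifi209: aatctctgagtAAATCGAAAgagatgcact
Ifi214: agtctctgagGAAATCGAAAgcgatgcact
Mndal and Ifi203 were identical over all 30 bases. Ifi209 shared 27 of 30 bases with Ifi214 and 21 of 30 with Mndal. The windows were cut around the AAANNGAAA match, so its fixed letters agree in every pair by that choice. All of these windows but that of Ifi209 held the full motif. Counted in bases from the gene start, the full motif began at -36 in Mndal, -41 in Ifi207, -37 in Ifi211 and -79 in Ifi214, and the shorter form at -78 in Ifi209.

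**Figure D1:**
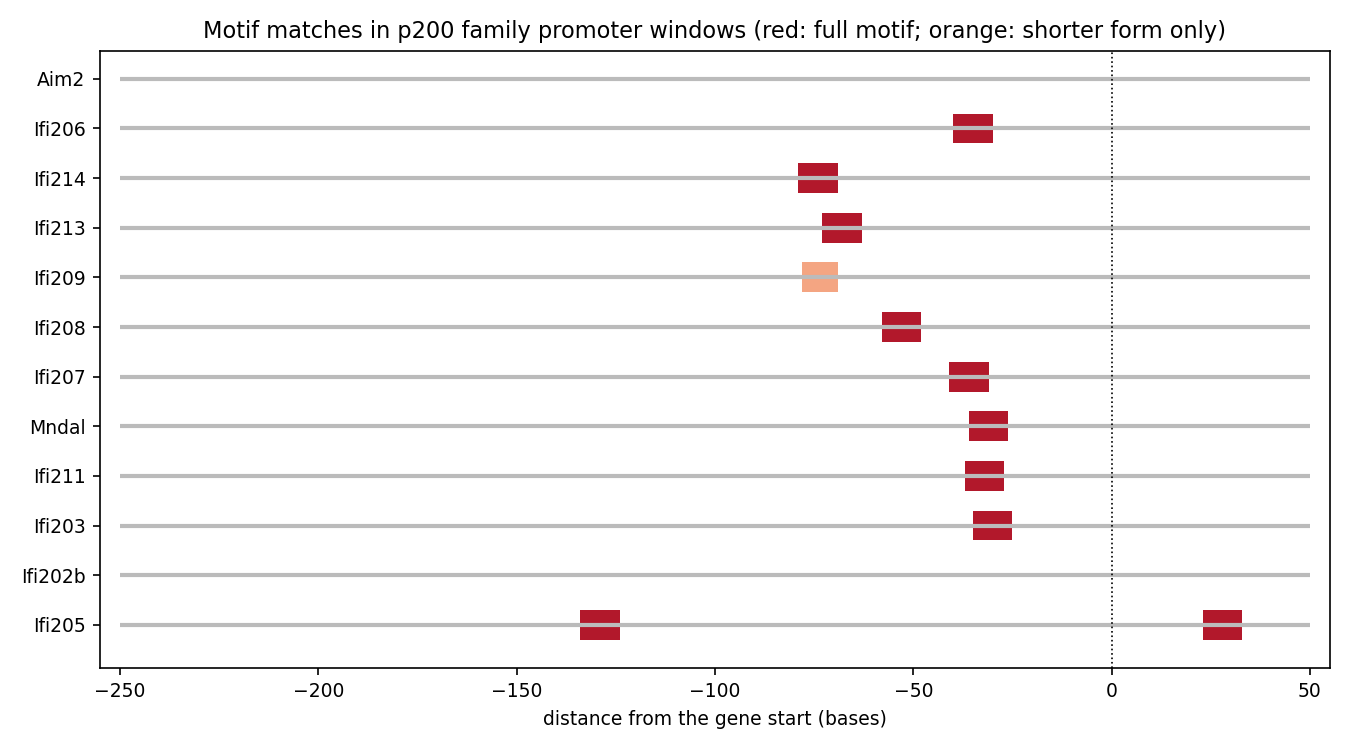
Position of the motif in the promoter windows of 12 p200 family genes, in bases from the gene start (0). Red blocks are matches of the full motif on either strand, the orange block is the shorter form in Ifi209, and Aim2 and Ifi202b hold neither.

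The deposited values were normalized log2 values, and every level and difference below is on that scale unless a fold is named. The number of arrays limits the precision. The label of the Nlrx1-/- parental replicate 1 array carried a recommendation to leave it out, based on a principal component analysis by the array service, and its median correlation with the other arrays was 0.896. Its values are shown, and the fits used the other 11 arrays, so that Nlrx1-/- parental tumours had 1 array, assumed to vary as the others did. Nlrx1 itself ranged between 9.31 and 10.67 on the 4T1OE arrays, 5.99 and 7.06 on the 4T1OE-CTL arrays, and 6.13 and 7.13 on the parental arrays. Its difference, 4T1OE minus 4T1OE-CTL, was 3.39 ± 0.34 (SE, adjusted p = 0.00227). The mean of 12 B cell and lymph node markers was 10.09 on the Nlrx1-/- 4T1OE-CTL replicate 1 array, 9.12 on Nlrx1-/- 4T1OE replicate 1 and 8.21 on the array left out, against 4.68 to 5.21 on the other 9. On those 3 arrays Glycam1, a mucin of lymph node vessels, was 12.93, 12.75 and 13.16. The standard deviation of the values on an array ran from 2.53 to 3.12.

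Mndal was the member with a called difference, with more signal in 4T1OE-CTL tumours than in parental ones. On the Nlrx1-/- 4T1OE arrays it read 12.40 and 13.12, and on the WT 4T1OE arrays 12.42 and 12.43. Nlrx1-/- 4T1OE-CTL tumours gave 13.49 and 13.31, and WT 4T1OE-CTL tumours 12.95 and 12.57. Nlrx1-/- parental tumours gave 12.20 on the array left out and 10.96 on the other, and WT parental tumours gave 12.00 and 11.96. All 8 arrays of the transduced lines thus lay above all 4 parental arrays, which held for 1.08% of all features. The lowest value of all came from the Nlrx1-/- parental array that was fitted.

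Ifi204, the DNA-sensing p204 gene, was high and varied little among the transduced lines. It read 13.20 and 13.88 in Nlrx1-/- 4T1OE, 13.73 and 13.48 in WT 4T1OE, 13.46 and 13.57 in Nlrx1-/- 4T1OE-CTL, and 13.85 and 13.90 in WT 4T1OE-CTL tumours. In parental tumours it read 12.36 (left out) and 12.31 in Nlrx1-/- hosts, and 12.81 and 13.23 in WT hosts. The 4T1OE-CTL arrays lay above every parental array, which held for 2.59% of all features. The lowest 4T1OE value, 13.20, fell just under the highest parental one, 13.23.

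Ifi207, a pyrin and HIN domain gene, spanned the narrowest range of the measured members, 10.40 to 11.79. Its values were 11.46 and 11.06 in Nlrx1-/- 4T1OE, 11.26 and 11.79 in WT 4T1OE, 10.85 and 11.37 in Nlrx1-/- 4T1OE-CTL, and 10.92 and 10.94 in WT 4T1OE-CTL tumours. Parental tumours gave 10.76 (left out) and 10.67 in Nlrx1-/- hosts, and 10.66 and 10.40 in WT hosts. Each transduced array was above each parental array, which held for 1.08% of all features, and the 4T1OE and 4T1OE-CTL arrays overlapped.

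Ifi209, also a PYHIN gene, was the member that varied most between arrays in each of the 3 Nlrx1-/- groups, but in none of the WT groups. It read 10.02 and 8.44 in Nlrx1-/- 4T1OE tumours and 8.71 and 8.23 in WT 4T1OE tumours. Nlrx1-/- 4T1OE-CTL tumours gave 12.83 and 9.63, against 8.23 and 8.59 in WT 4T1OE-CTL tumours. Nlrx1-/- parental tumours gave 10.62 (left out) and 6.77, against 8.16 and 8.21 in WT parental tumours. The 3 highest values came from the 3 arrays rich in lymph node transcripts. The part of those transcripts in the Ifi209 values was not tested. On the 6 WT arrays Ifi209 stayed between 8.16 and 8.71. In bulk tumour RNA, fewer cells of a type and less RNA per cell cannot be told apart, here and for every gene below.

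**Figure D2:**
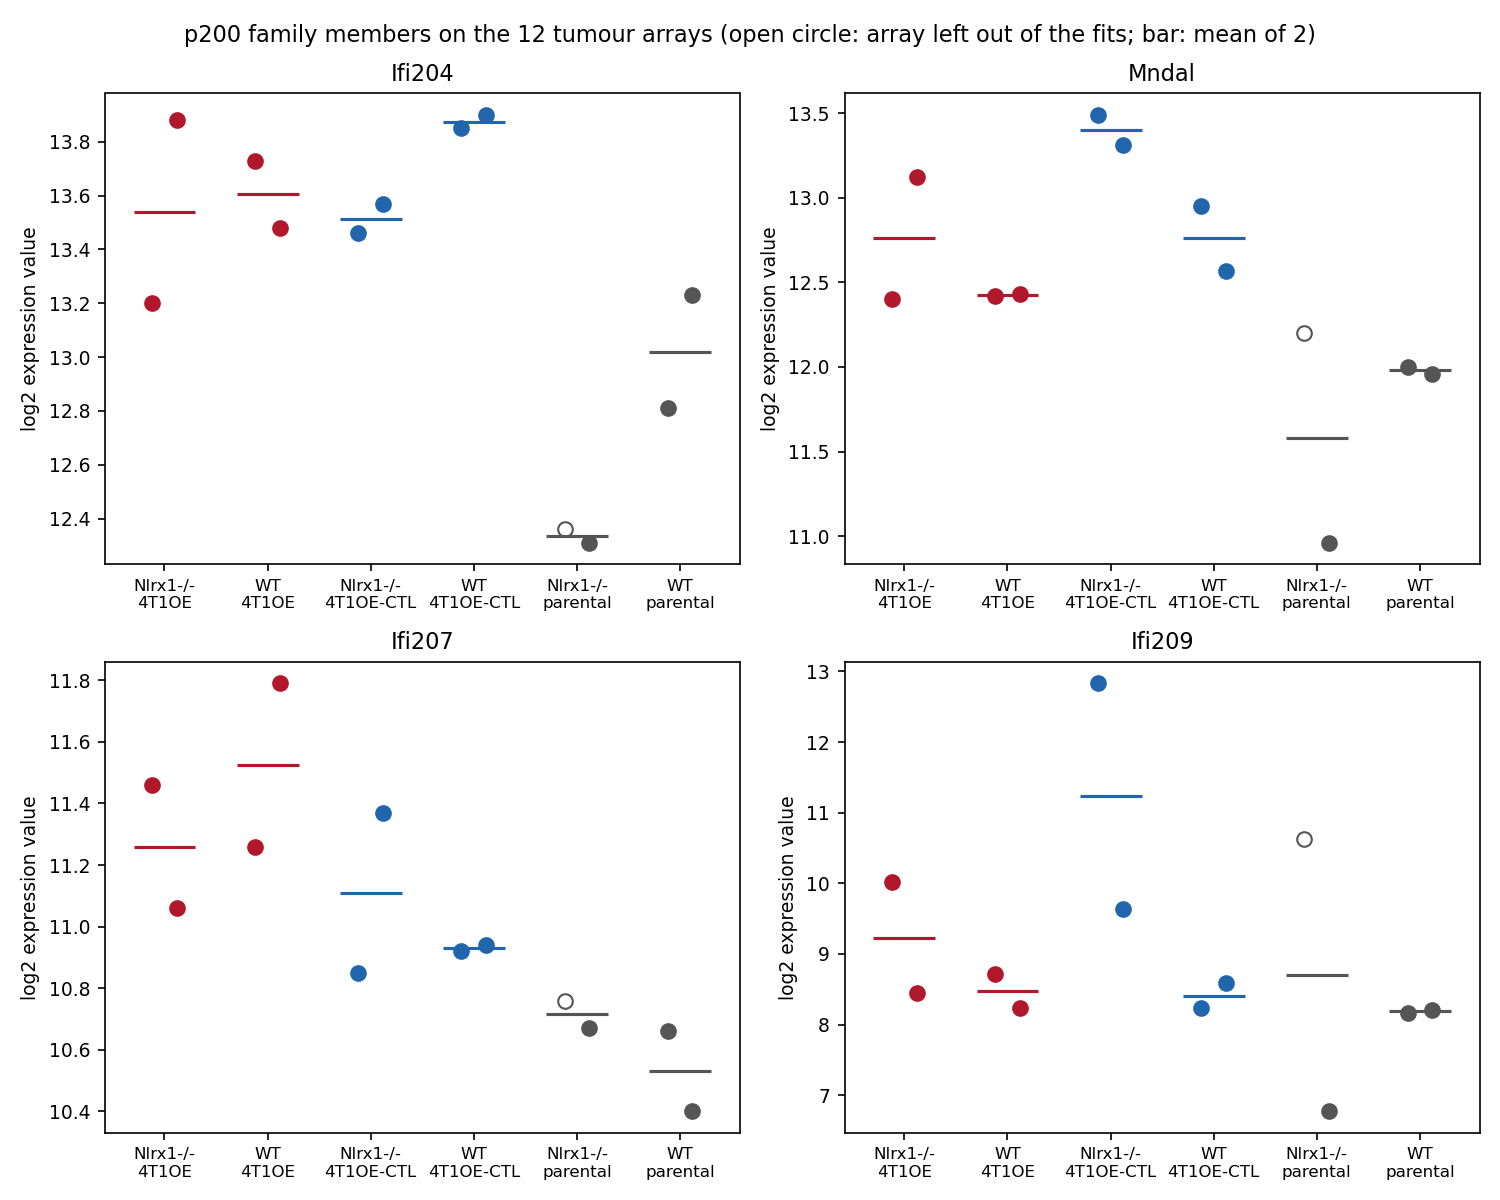
Deposited log2 values of Ifi204, Mndal, Ifi207 and Ifi209 on the 12 tumour arrays, by host and injected line. Each point is an array, bars are means of 2 arrays, the open circle is the array left out of the fits, and the vertical axes differ between panels. Mndal and Ifi207 are above every parental array on all 8 arrays of the transduced lines, as are 1.08% of all features.

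The order of the 6 group means differed between the members. Ifi204 was highest in WT 4T1OE-CTL tumours (13.88), followed by WT 4T1OE (13.60), Nlrx1-/- 4T1OE (13.54), Nlrx1-/- 4T1OE-CTL (13.51), WT parental (13.02) and Nlrx1-/- parental tumours (12.33). Ifi207 ran from WT 4T1OE (11.53) through Nlrx1-/- 4T1OE (11.26), Nlrx1-/- 4T1OE-CTL (11.11), WT 4T1OE-CTL (10.93) and Nlrx1-/- parental (10.71) to WT parental tumours (10.53). Mndal and Ifi209 were both highest in Nlrx1-/- 4T1OE-CTL tumours, at 13.40 and 11.23. Of the 20 pairs of neighbouring groups in these 4 orders, 11 overlapped in their values. Among the overlapping neighbours were the first 4 groups for Ifi207 and the first 5 for Ifi209.

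4T1OE and 4T1OE-CTL tumours differ in NLRX1 overexpression and in line. Between them, 0 of the 4 measured members were called by limma, against 4.73% of all features. An unadjusted p under 0.05 was found for 0 of the 4, against 24.2% of features. Ifi207 averaged 11.39 ± 0.31 in 4T1OE and 11.02 ± 0.23 in 4T1OE-CTL tumours (SD, n = 4 each), a difference of 0.37 ± 0.21 (SE, adjusted p = 0.296). Mndal averaged 12.59 ± 0.35 in 4T1OE and 13.08 ± 0.41 in 4T1OE-CTL tumours (SD, n = 4 each), a difference of -0.49 ± 0.29 (SE, adjusted p = 0.330). For Ifi204 the difference was -0.12, with a 95% interval of -0.59 to 0.34 (adjusted p = 0.752). For Ifi209 it was -0.97, with a much wider interval of -2.67 to 0.72 (adjusted p = 0.462). Without the Nlrx1-/- 4T1OE-CTL replicate 1 array, rich in lymph node transcripts, the Ifi209 difference was -0.01, and without all arrays of a standard deviation under 3 it was 0.25. The arrays of the 2 lines overlapped for every measured member. Among all features, 9.39% were higher and 7.13% lower on all 4 4T1OE arrays than on all 4 4T1OE-CTL arrays.

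The interferon genes around the members were lower more often than higher in the same comparison. Here and below, genes of a list are counted as having risen or fallen where their adjusted p was under 0.05. Of 29 measured type I interferon response genes, 6 fell and 1 rose in 4T1OE against 4T1OE-CTL tumours. Negative differences were found for 25 of the 29. The median difference was -0.57, against -0.30 over the 4 members and -0.05 over all features. Those that fell included Herc6, an ISG15 ligase (-1.70, adjusted p = 0.00594), Bst2, the tetherin gene (-1.47, adjusted p = 0.0134), and Ifit1, an inhibitor of viral RNA translation (-0.99, adjusted p = 0.0298). Eif2ak2, the double-stranded RNA kinase PKR, rose by 0.85 (adjusted p = 0.0344). Of 22 interferon gamma inducible genes, 5 fell and 1 rose, and 19 had negative differences. Those that fell included the GTPase genes Tgtp2 (-2.37), Igtp (-2.09) and Gbp4 (-1.98), and the checkpoint ligand Cd274 (-1.24). Tapbp, which loads peptide on MHC class I, rose by 1.16 (adjusted p = 0.0400).

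Of 20 measured genes of cytosolic DNA sensing and STING signalling, 2 rose and 2 fell in 4T1OE against 4T1OE-CTL tumours. Beside Nlrx1 itself, the DNA sensor Cgas rose by 1.19 (adjusted p = 0.0311). Casp1, the inflammasome protease, fell by 1.60 (adjusted p = 0.00424), and the nucleic acid sensor Zbp1 fell by 1.18 (adjusted p = 0.0205). Among 24 interferons, receptors and JAK-STAT genes, the receptor subunit Ifnar1 rose by 0.81 (adjusted p = 0.0479) and the kinase Jak2 fell by 1.70 (adjusted p = 0.0115). Of 14 macrophage markers 7 rose, with a median difference of 1.29. The list's mean was 11.46 to 11.80 on the 4 4T1OE arrays, against 9.29 to 10.46 on the 4T1OE-CTL arrays. Of 10 endothelial markers 4 rose (median 0.97), and of 13 T and NK cell markers 2 fell (median -1.24). The part of these cell types in the values of the members and the interferon genes was not tested.

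4T1OE-CTL and parental tumours differ in transduction and in line, which cannot be told apart. Between them, 1 of the 4 measured members was called, Mndal, against 2.59% of all features. It was 1.42 ± 0.32 (SE) higher in 4T1OE-CTL tumours, a 2.68-fold difference with a 95% interval of 1.65-fold to 4.36-fold (adjusted p = 0.0387). Its mean was 13.08 ± 0.41 (SD, n = 4) in 4T1OE-CTL tumours and 11.64 ± 0.59 (SD, n = 3) in parental tumours. The call was not stable, and held in 3 of the 11 fits that each left out 1 array. Without the Nlrx1-/- parental replicate 2 array the difference was 0.86 (adjusted p = 0.271), and without both fitted arrays rich in lymph node transcripts it was 1.31 (adjusted p = 0.101). With all 12 arrays it was 1.30 (adjusted p = 0.0887).

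Ifi204 came next, at 0.97 ± 0.23 (SE), or 1.95-fold with a 95% interval of 1.38-fold to 2.78-fold, and its adjusted p of 0.0512 was just over the threshold of 0.05. Ifi209 differed by 1.94 ± 0.85 (SE, adjusted p = 0.289) and Ifi207 by 0.44 ± 0.23 (SE, adjusted p = 0.382). The Ifi209 value was 0.74 without the Nlrx1-/- parental replicate 2 array and 1.10 without Nlrx1-/- 4T1OE-CTL replicate 1. All 4 measured members had positive differences, against 52.0% of all features. An unadjusted p under 0.05 was found for 3 of them and for 15.9% of all features. Their median was 1.19, against 0.02 over all features. Over all 12 arrays, Ifi204, Ifi207 and Mndal did not overlap between 4T1OE-CTL and parental tumours, which held for 2.59% of features in that direction.

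**Figure D3:**
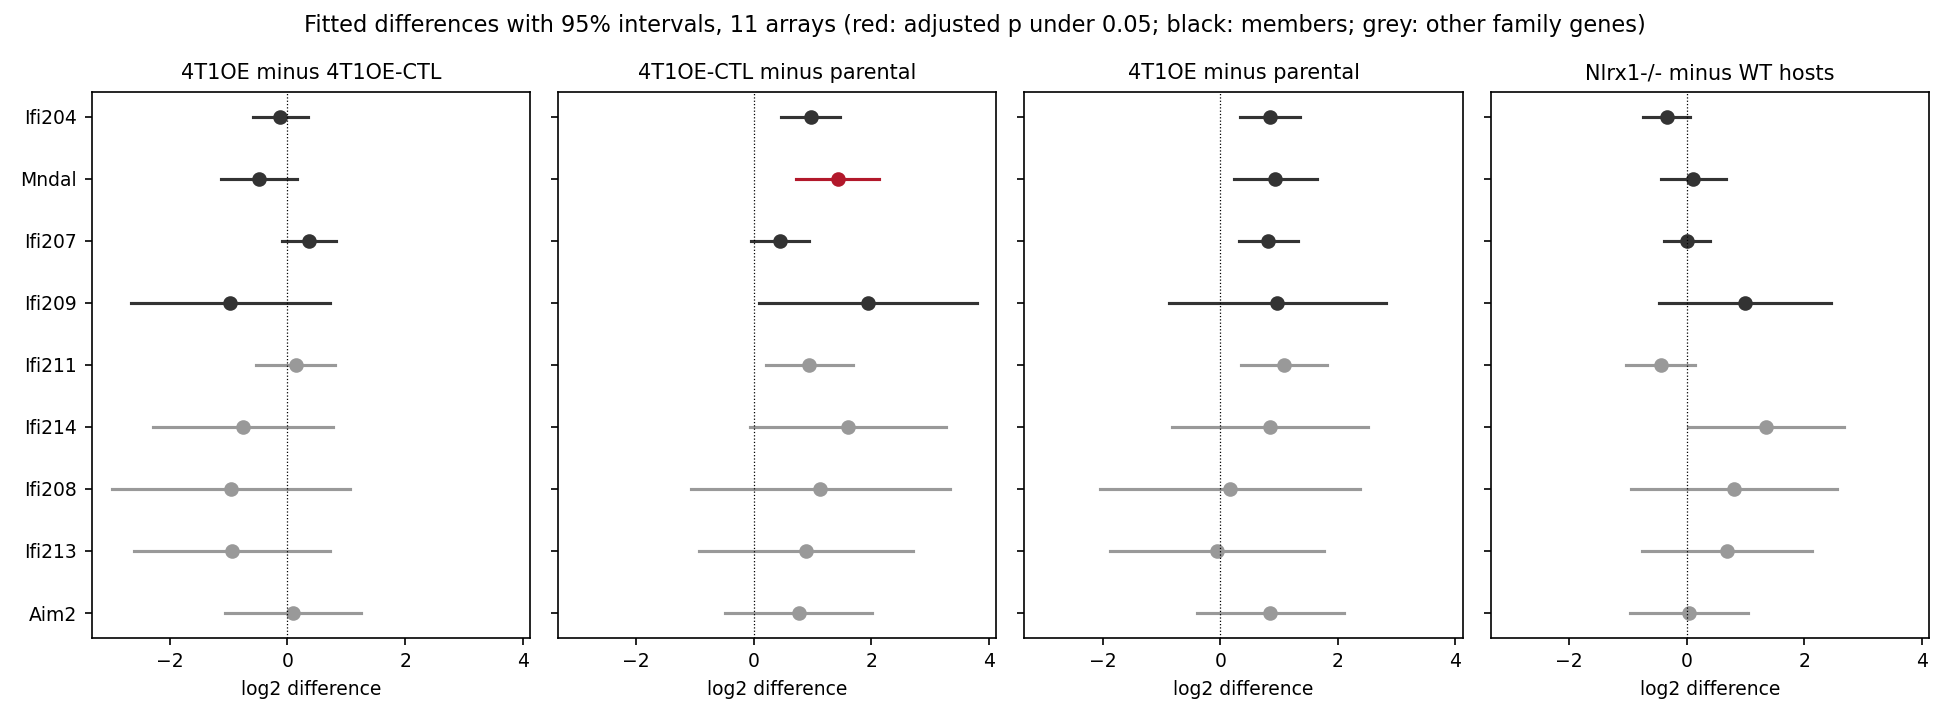
Fitted log2 differences of 4 members (black) and 5 other p200 family genes (grey) in 4 comparisons over 11 arrays, with 95% intervals as bars. Mndal in 4T1OE-CTL against parental tumours, in red, is the single difference with an adjusted p under 0.05, and the intervals of Ifi209, Ifi214, Ifi208 and Ifi213 are the widest.

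Interferon response genes differed in the same direction between 4T1OE-CTL and parental tumours. Of 29 type I interferon response genes 13 rose and 0 fell, all 29 had positive differences, and the median was 1.20. Ifit3 rose by 2.74 (adjusted p = 0.0145), Herc6 by 2.55 (adjusted p = 0.000768) and Bst2 by 1.93 (adjusted p = 0.00269). Of 22 interferon gamma inducible genes 16 rose and 0 fell, with a median of 2.67. Cxcl9, a chemokine that draws T cells, rose by 5.84 (adjusted p = 0.00269), and Gbp4 by 4.59 (adjusted p = 0.00140). Among the interferon genes and their signalling, Ifng rose by 1.94 (adjusted p = 0.0158). Stat2, Irf9 and Irf1, which carry interferon signals to promoters, rose by 1.84, 1.09 and 1.58, and the interferon gene Ifnk fell by 1.08 (adjusted p = 0.0487). Of the DNA sensing list, 4 of 20 rose and 0 fell: Irf7, a driver of interferon transcription (2.22), the nucleotide hydrolase Samhd1 (2.05), Zbp1 (1.63) and Casp1 (1.03).

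Cell type markers moved in the same comparison. Of 13 T and NK cell markers 3 rose and all 13 had positive differences, with a median of 2.0. The list's mean was 6.76 to 8.66 in 4T1OE-CTL tumours, against 5.43 to 5.84 in parental tumours. On every fitted parental array 6 of those 13 lay under the median of the negative control features. Of 12 epithelial and 4T1 tumour cell markers 6 fell and all 12 had negative differences. The list's mean was 7.40 to 9.38 in 4T1OE-CTL tumours, against 9.96 to 11.76 in parental tumours. Of 9 fibroblast markers 2 fell and 7 had negative differences. Of 10 endothelial markers 1 fell and all 10 had negative differences, with a median of -0.75. The 12 skeletal muscle markers all had positive differences, with a median of 2.39, 0 called by limma and 5 with an unadjusted p under 0.05. Among macrophage markers, 0 of the 14 were called by limma, and 5 had an unadjusted p under 0.05. Of the 14, 12 had negative differences, with a median of -0.58. Of the 12 B cell and lymph node markers, 9 lay under the negative control median on every fitted parental array. The part of these cell types in the Mndal difference was not tested.

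Between 4T1OE and parental tumours, 0 of the 4 measured members were called, against 1.33% of all features, while 3 had an unadjusted p under 0.05, as did 13.8% of all features. This comparison shares its parental arrays with the one before and its 4T1OE arrays with the first, so the 3 sets of differences are not independent. Mndal differed by 0.94 ± 0.32 (SE, adjusted p = 0.204), Ifi204 by 0.84 ± 0.23 (SE, adjusted p = 0.111), Ifi207 by 0.82 ± 0.23 (SE, adjusted p = 0.118) and Ifi209 by 0.97 ± 0.85 (SE, adjusted p = 0.669). Without the Nlrx1-/- parental replicate 2 array the Mndal difference was 0.37 and that of Ifi209 was -0.23. The median over the 4 was 0.89, against -0.03 over all features. Over all 12 arrays Ifi207 and Mndal did not overlap, which held for 8.61% of features in that direction. Of 9 fibroblast markers 4 fell, and of 12 epithelial and 4T1 tumour cell markers 5 fell, and their part in the members' values was not tested.

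Set against all 4 parental arrays, Ifi207 and Mndal were higher on each of the 8 arrays of the transduced lines, as were 1.08% of all features. Over the 11 fitted arrays Ifi209 did the same, with 8.23 as its lowest transduced and 8.21 as its highest parental value, and the share of all features was 1.69%. In 4T1OE against parental tumours, 10 of 22 interferon gamma inducible genes rose, including Cxcl9 (4.43) and Cxcl10 (3.02), and 1 of 29 type I response genes rose, Eif2ak2 (0.99, adjusted p = 0.0458). The median was 1.68 for the interferon gamma list and 0.76 for the type I list.

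Host genotype gave no call for any feature by limma (0 of 22206, or 0.0%, adjusted), while 955 features (4.3%) and 0 of the 4 members had an unadjusted p under 0.05. For the members the Nlrx1-/- minus WT difference was -0.34 for Ifi204, 0.00 for Ifi207, 0.99 for Ifi209 and 0.11 for Mndal, each with an adjusted p of 0.9999. The 95% interval for Ifi207 was -0.39 to 0.40, and for Ifi209 it was -0.48 to 2.46. Ifi209 had a standard deviation of 2.23 over the 5 fitted Nlrx1-/- arrays and 0.23 over the 6 WT arrays, and the first included both fitted arrays rich in lymph node transcripts. Without those arrays the host difference of Ifi209 was -0.07. Of 22 interferon gamma inducible genes 21 had negative host differences, with a median of -0.86, 13 unadjusted p-values under 0.05 and 0 called by limma. The hosts' arrays overlapped for every measured member, while 0.0721% of features were higher and 0.0585% lower on all Nlrx1-/- arrays.

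Within hosts, 4T1OE against 4T1OE-CTL gave 0 of 4 members called in Nlrx1-/- hosts, against 1.19% of all features, and 0 of 4 in WT hosts, against 0.0135%. In Nlrx1-/- hosts 1 member, Ifi209, had an unadjusted p under 0.05, against 20.8% of all features, with a difference of -2.0 ± 0.85 (SE, adjusted p = 0.223). That value was -0.40 without the Nlrx1-/- 4T1OE-CTL replicate 1 array, rich in lymph node transcripts, and -3.60 without replicate 2. In WT hosts its difference was 0.06 ± 0.85 (SE, adjusted p = 0.995), and 0 members had an unadjusted p under 0.05, against 8.07% of features. The test of the difference between hosts gave -2.06 ± 1.20 (SE, adjusted p = 0.999), or -0.45 without the Nlrx1-/- 4T1OE-CTL replicate 1 array, and 0.0% of features were called. Mndal differed by -0.64 in Nlrx1-/- and -0.33 in WT hosts, and Ifi204 by 0.03 in Nlrx1-/- and -0.27 in WT hosts.

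Within lines, 0.0% of features were called between Nlrx1-/- and WT hosts, and 0 of 4 members by limma. An unadjusted p under 0.05 was found in 4T1OE-CTL tumours for 1 member (Ifi209) and 9.55% of all features, and in 4T1OE tumours for 0 members and 0.874% of features. Ifi209 was 11.23 in Nlrx1-/- and 8.41 in WT hosts carrying 4T1OE-CTL tumours, a difference of 2.82 with a 95% interval of 0.92 to 4.72 (adjusted p = 0.382). The difference was 1.22 without Nlrx1-/- replicate 1, the array rich in lymph node transcripts, and 4.42 without Nlrx1-/- replicate 2. The B cell and lymph node markers had a median difference of 2.70 in the same comparison, and their part in the Ifi209 value was not tested. It was 9.23 in Nlrx1-/- and 8.47 in WT hosts carrying 4T1OE tumours, a difference of 0.76 (adjusted p = 0.9999). For Mndal the host difference was 0.64 in 4T1OE-CTL tumours (adjusted p = 0.546) and 0.33 in 4T1OE tumours. In 4T1OE-CTL tumours all 22 interferon gamma inducible genes had negative host differences (median -1.27), 17 with an unadjusted p under 0.05 and 0 called. Among the members, Ifi204 differed by -0.37 and Ifi207 by 0.18 there, and Mndal and Ifi209 had positive differences.

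The other p200 genes fell into more than 1 pattern, and 0 of the 5 were called by limma in any of the comparisons above. An unadjusted p under 0.05 was found for 0 of 5 in 4T1OE against 4T1OE-CTL, 1 of 5 in 4T1OE-CTL against parental (15.9% of all features), 1 of 5 in 4T1OE against parental (13.8%) and 1 of 5 between hosts (4.3%). Between hosts with 4T1OE-CTL tumours it was found for 2 of 5 (9.55%), and in the other comparisons for 0 of 5. Ifi211, another PYHIN gene, read 15.32 to 15.67 in 4T1OE, 14.14 to 15.88 in 4T1OE-CTL and 13.33 to 14.74 in parental tumours over all 12 arrays. Its difference was 0.94 ± 0.34 (SE, adjusted p = 0.184) between 4T1OE-CTL and parental tumours. Without the Nlrx1-/- 4T1OE-CTL replicate 1 array, where it was lowest of the transduced arrays (14.14), that difference was 1.27 (adjusted p = 0.0161).

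Ifi214 followed Ifi209, with 10.38 on the Nlrx1-/- 4T1OE-CTL replicate 1 array, 8.26 on Nlrx1-/- 4T1OE replicate 1 and 6.89 on the array left out. Its other values were 5.49 to 7.01. On the 3 fitted parental arrays Ifi214 was near background, at 5.49 to 5.64, where the negative control medians were 5.29 to 5.64. Ifi208 and Ifi213 read 10.06 and 9.44 on the Nlrx1-/- 4T1OE-CTL replicate 1 array. Next came the array left out (7.19 and 6.02) and Nlrx1-/- 4T1OE replicate 1 (7.12 and 5.88). Their values elsewhere were at most 5.71 and 5.58. Ifi208 lay under the median of the negative control features on 3 of the 4 4T1OE, 1 of the 4 4T1OE-CTL and 2 of the 4 parental arrays. Its values there were near background. Aim2, the inflammasome sensor, ranged between 4.94 and 7.89 without separating the lines. It lay under the negative control median on 1 4T1OE-CTL and 1 parental array.

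**Figure D4:**
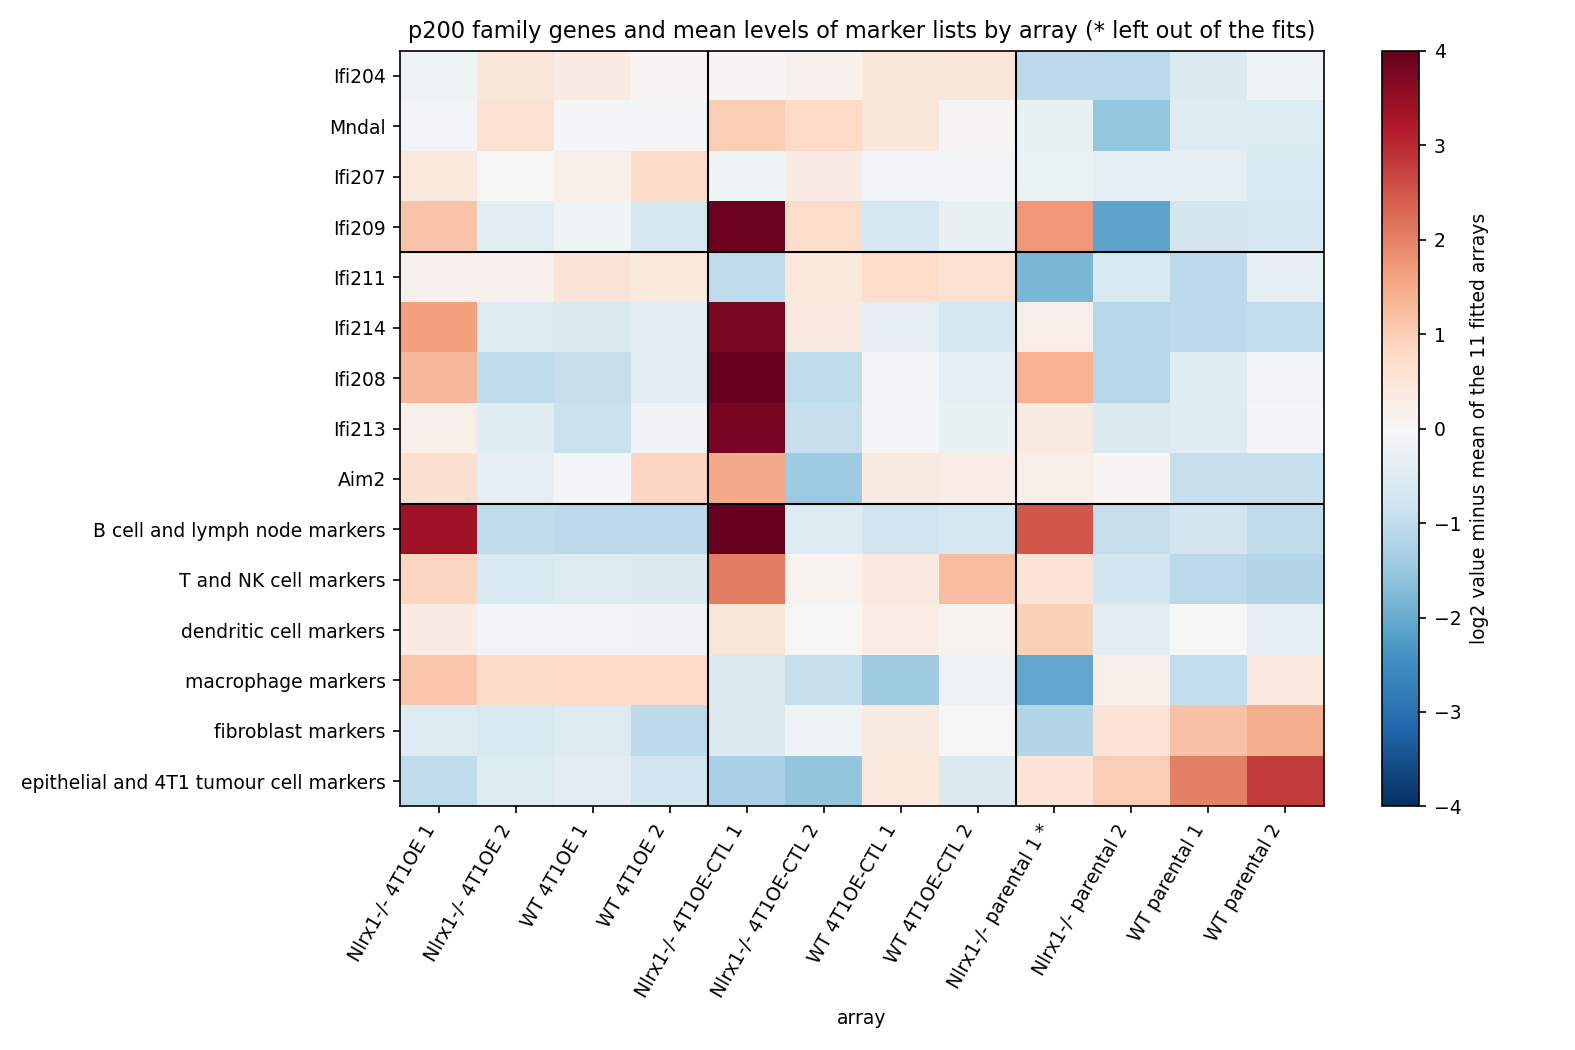
Log2 values of the 4 measured members, 5 other p200 genes and the means of 6 marker lists on each of the 12 arrays, minus the mean over the 11 fitted arrays, with colours ending at 4 and -4. Ifi209, Ifi214, Ifi208, Ifi213 and the B cell and lymph node list are all darkest red on the Nlrx1-/- 4T1OE-CTL replicate 1 array. Ifi204 and Mndal lie below their means on the parental arrays, on some of them only slightly.

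Across arrays the members fell into differing company, described here by correlations over the 11 fitted arrays, which share lines and hosts. Ifi204 and Mndal had a Pearson r of 0.79 (Spearman rho 0.65), and r was 0.87 over the 9 arrays without the lymph node transcripts. Ifi204 followed the mean of the interferon gamma inducible genes with r = 0.91 (rho 0.88). Mndal followed that list with r = 0.80 and the type I list with r = 0.85. Ifi207 and Ifi209 had lower r to the interferon gamma list, 0.34 and 0.37. To the fibroblast markers r was -0.83 for Ifi207, -0.52 for Mndal, -0.48 for Ifi204 and -0.42 for Ifi209. To the epithelial and tumour cell markers it was -0.76 for Ifi207, -0.66 for Mndal, -0.56 for Ifi209 and -0.50 for Ifi204. Ifi209 and Ifi214 had r = 0.96, or 0.81 over the 9 arrays. Ifi209 and the B cell and lymph node list had r = 0.86, or 0.50 over the 9 arrays.

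**Figure D5:**
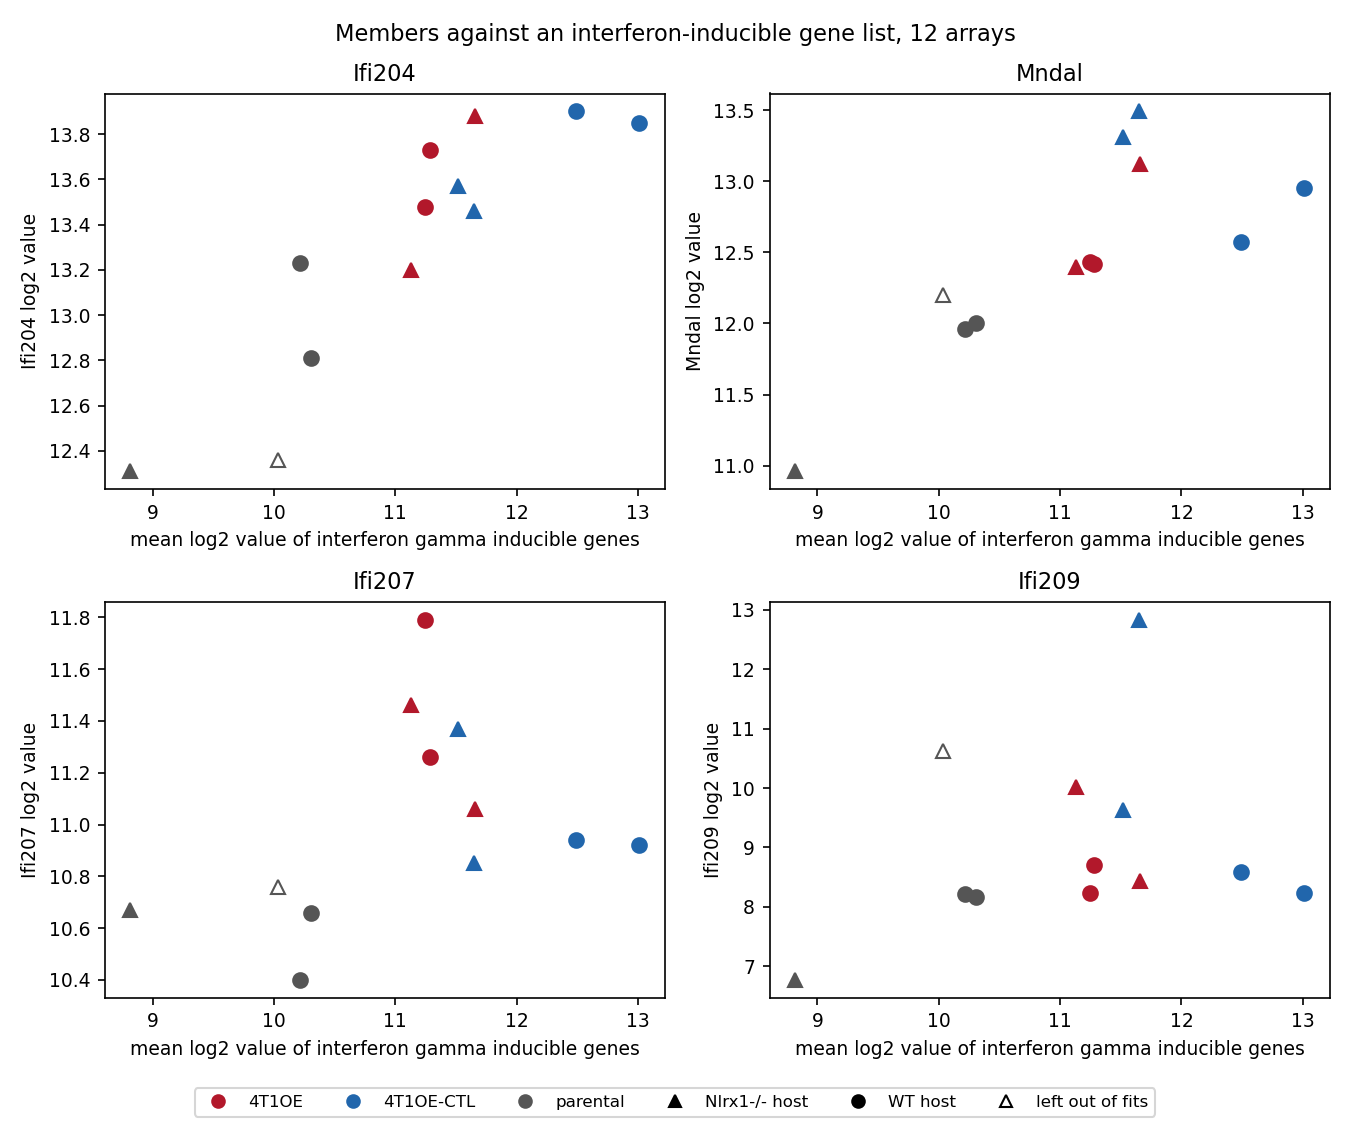
Each member's log2 value (vertical) against the mean log2 value of 22 interferon gamma inducible genes (horizontal) on the 12 arrays, by injected line (colour) and host (shape), with the array left out as an open symbol. Ifi204 climbs with the list, whereas Ifi207 is highest in 4T1OE tumours and Ifi209 has its top value, 12.83, at a list mean of 11.65, below the list's top of 13.01.

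The genes most like the members were sought by the Pearson r of each with the mean of the centred values of the 4 measured members over the 11 fitted arrays. The 10 highest, among genes brighter than the median feature, were Ms4a4c (0.96), Irf9 (0.94), Irf7 (0.93), Acap1 (0.93), Mical1 (0.92), Phf11c (0.91), Slfn8 (0.91), Plac8 (0.91), Ifit3 (0.89) and Rbmx (0.89). Irf9 and Irf7 are transcription factors of the interferon response, Ifit3 is an interferon-induced antiviral gene, and Slfn8 belongs to the Schlafen family. Without both fitted arrays rich in lymph node transcripts r was between 0.81 and 0.95 for these 10 genes. They had been picked for a high r over arrays that include the 9 left. A high r there is therefore partly fixed by that choice and is no independent check. The Ifi209 values weigh most in this mean, since that gene varied most over the 11 arrays.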

How the data were processed

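Clariom S arrays of pooled tumour RNA gave 1 value per feature and array. The authors deposited log2 values, already normalized and summarised by a method not given in the sources used here. Per the submitters' processing notes, the Transcriptome Analysis Console was used, and no genome build was named. The values were used as deposited. Of 28846 features, 6640 were controls and 22206 were tested; 19572 had 1 gene symbol, updated through Entrez identifiers to RefSeq. The empty column of the manufacturer's control array, 1 in all, was not used. No scan date or batch was given with the values.

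On 11 arrays, limma 3.58.1 under R 4.3.3 estimated the differences (lmFit and eBayes, two-sided, Benjamini-Hochberg over all 22206 features, threshold 0.05). An additive model of host and line gave the main comparisons, and a model with 1 mean per group gave those within a host or line. Both were tested on simulated data. The members and gene lists were chosen with earlier results of these data known, so their shared directions are no independent support. Genes named were the members, other p200 genes on the array, list members past the threshold (or of smallest p), the 10 genes most correlated with the members, and Nlrx1, of which the text gives examples. Alternatives changed the arrays, normalization, filter, model and threshold. Promoter windows and motif counts came from RefSeq sequences and exact matching.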

Additional observations from a re-analysis of the deposited data

Results flagged for a closer look

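In 5 of 45 groups of 4 or more arrays examined over the 9 measured family genes, 1 array stood far from the others by Dixon's criterion at 95%. Chance alone reaches it in about 1 group in 20 when all values come from 1 population. Here line groups mixed hosts, host groups mixed lines, and both included the array left out. Both also used the same arrays, so that rate is not a measure of chance for these groups. Ifi207 read 11.37 on the Nlrx1-/- 4T1OE-CTL replicate 2 array, the highest of 4 4T1OE-CTL arrays, where the other values were 10.85 to 10.94. Mndal read 13.12 on the Nlrx1-/- 4T1OE replicate 2 array, against 12.40 to 12.43 on the other 4T1OE arrays. Ifi213 read 9.44 on the Nlrx1-/- 4T1OE-CTL replicate 1 array, the highest of 6 Nlrx1-/- arrays. Ifi214 read 8.26 on the Nlrx1-/- 4T1OE replicate 1 array, the highest of 4 4T1OE arrays, and 6.89 on the Nlrx1-/- parental replicate 1 array, the highest of 4 parental arrays. The arrays of the Ifi213 and Ifi214 values are the 3 rich in lymph node transcripts, whose part in these values was not tested.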

How the results depend on the processing

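In 4T1OE-CTL against parental tumours, 1 member was called. The count was 0 when all 12 arrays were fitted, with each array's standard deviation as a covariate, with arrays whose standard deviation was under 3 left out, and with the 2 arrays high in lymph node genes left out. It was 2 with quantile normalization, with the dimmest features left out, and at a fold of at least 2 with an unadjusted p under 0.05. Leaving out each array in turn gave 0 to 2. Over the alternatives the Mndal difference ran from 0.86 to 1.62, positive each time, and its adjusted p from 0.00695 to 0.444, under 0.05 in 9 of 22. The call was lost without WT parental 2, Nlrx1-/- parental 2, WT 4T1OE 1, WT 4T1OE 2, Nlrx1-/- 4T1OE 1, WT 4T1OE-CTL 1, Nlrx1-/- 4T1OE-CTL 1 or Nlrx1-/- 4T1OE-CTL 2, each left out alone. Ifi204 passed with quantile normalization (1.11, adjusted p = 0.0291), with the dimmest features left out (adjusted p = 0.0455) and without Nlrx1-/- 4T1OE 2 (adjusted p = 0.0371). At an unadjusted p below 0.05 with a fold of at least 2, 1 member, Ifi209, was called in 4T1OE against 4T1OE-CTL in Nlrx1-/- hosts, against 12.0% of all features, and likewise 1 between hosts in 4T1OE-CTL tumours, against 4.09%. For 4T1OE-CTL against parental tumours that threshold called 5.49% of features. The cause of these changes was not tested.

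The replicate number as a block gave 0 members called in 4T1OE-CTL against parental tumours, with Mndal at 1.40 (adjusted p = 0.0594). Deviations of same-numbered arrays correlated between -0.31 and 0.37 over 10 pairs of groups, so the numbers were not taken as pairs. Of 816 member values under alternatives, 772 kept their sign, and no called value changed sign. All 4 members kept positive differences in 4T1OE-CTL against parental tumours, and 3 of 4 in 4T1OE against parental tumours, the exception being Ifi209. The number of features called ran from 4 to 2663 for 4T1OE against 4T1OE-CTL (1051), 126 to 1219 for 4T1OE-CTL against parental (575) and 83 to 1048 for 4T1OE against parental (295). For hosts it ran from 0 to 102. The counts 1219, 1048 and 102 came at an unadjusted p under 0.05 with a fold of at least 2, not at the adjusted threshold. Leaving out arrays with a standard deviation under 3 gave no value for 3 comparisons, since it left no Nlrx1-/- 4T1OE-CTL array, and no member had a second feature to try. Signal near the negative controls limits Ifi208, Ifi213 and Aim2, and Ifi214 on the fitted parental arrays.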
